A study of Homo sapiens with 2 samples.

Results

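The genes described here encode the proteins of the cytosolic ribosome. They were taken from the array annotation as every probe set, a group of short DNA probes that reads a stretch of a transcript, whose only gene symbol was RPL or RPS with a number and at most an A, X or L after it, or RPLP0, RPLP1, RPLP2 or RPSA. This gave 117 of 54675 probe sets, for 56 of 19775 named genes. Kinases of the RPS6K family and pseudogenes were left out, and 64 more probe sets that carry a ribosomal protein symbol beside other symbols were not named. Of the 22 ribosomal protein symbols in those, 15 have no probe set of their own and are not analysed here. The rule reads symbols and no signal, but it was set with earlier results of these data known.

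The arrays compare HEK293T cells, a line from human embryonic kidney that expresses the simian virus large T antigen, with and without the homeodomain transcription factor IRX1. Cells were transfected with polyethylenimine and the vector pcDNA3.1-GFP (GFP control) or pcDNA3.1-IRX1::GFP (IRX1::GFP), and total RNA was taken after 48 h from cells sorted for GFP. Transfection was transient, so that the level of the transgene can differ from cell to cell. For each condition 1 HG-U133 Plus 2.0 array was analysed, started from 200 ng of RNA. Whether an array stands for a single culture or for a pool is not settled by the sources used here. With 1 array per condition no p-value and no error between cultures can be given for any result below.

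Ribosomal proteins bind the ribosomal RNAs and form, with them, the large subunit, which joins amino acids, and the small subunit, which reads the mRNA. The proteins are made in matched amounts, and their mRNAs are among the most abundant of growing cells. Most of these mRNAs start with a C followed by an unbroken run of pyrimidines, the 5′ terminal oligopyrimidine tract, through which mTORC1 and the RNA-binding protein LARP1 control their translation. A change in ribosome loading alone would not be read by an array of RNA levels. Whether these factors also changed the amount of the mRNAs was not tested.

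The start of the transcript is shown here because most of these genes share the tract there. RefSeq promoters (GRCh38.p14) were found for 48 of the 56 genes. The missing ones were RPL23A, RPL30, RPL37, RPL39L, RPL3L, RPL7, RPL8 and RPS15A. Each line gives 30 bases of the transcript's strand, 10 before and 20 from the annotated start on. Capitals mark the longest run of C and T of at least 5 bases that opens with C within 5 bases of the start.
RPS9, chr19:54200848-54200877, plus strand: gcttccgcgCCTCTTTCTCagtgaccgggt
RPL22, chr1:6199576-6199605, minus strand: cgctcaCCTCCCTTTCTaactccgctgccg
RPL39, chrX:119791611-119791640, minus strand: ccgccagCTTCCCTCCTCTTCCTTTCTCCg
RPLP1, chr15:69452808-69452837, plus strand: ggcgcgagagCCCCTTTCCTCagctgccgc
RPS23, chr5:82278335-82278364, minus strand: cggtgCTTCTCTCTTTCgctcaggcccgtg
RPL3, chr22:39319604-39319633, minus strand: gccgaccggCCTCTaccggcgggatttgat
RPS27, chr1:153990752-153990781, plus strand: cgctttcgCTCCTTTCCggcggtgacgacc
RPS27L, chr15:63157458-63157487, minus strand: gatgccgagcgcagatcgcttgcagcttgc
RPS9, RPL22 and RPL3 are shown for their log2 ratios, described below, RPL39 for the longest run, and RPLP1 and RPS23 as 2 of the brightest genes. RPS27 and its paralog RPS27L stand together because only RPS27 has a tract in this window.

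With the annotated start taken as it is, 33 of 48 member promoters began with C and at least 4 further pyrimidines, 68.8%, against 4.04% of 27305 genes with a promoter. The motif CCGGAAG, bound by factors of the ETS family, lay on either strand in 37.5% of member promoters and in 10.7% of all. Over the 15843 promoters of protein-coding genes, CCGGAAG was in 14.2% and the pyrimidine start in 4.6%. The letters CTTTCC were in 45.8% of member promoters and 26.3% of all, and CTCTTTC, which can overlap CTTTCC, in 22.9% and 7.71%. For AAGATGG, the core bound by YY1, the shares were 10.4% and 6.06%. The log2 ratio of the 33 genes with a pyrimidine start had a median of 0.13, and that of the other 15 genes with a promoter a median of 0.11. A match of letters is a description of the window and not a binding site.

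The deposited values are linear MAS5 intensities, scaled by the authors until the mean without the lowest and highest 2% came to about 1000 on both arrays. A common change of all mRNAs is therefore not seen, and each value is relative to the rest of its array. The comparison was a log2 ratio, the signal with IRX1::GFP over that of the GFP control, for the brightest probe set of each gene by mean signal. A gene was kept where that mean reached 183, the median over all probe sets that are not array controls. Background was set from 107 probe sets of olfactory receptor genes, whose 90th percentile was 143 for GFP control and 179 for IRX1::GFP. The 1 probe set of IRX1 read 33.1 and 57, both under background, and whether it reads the transfected cDNA is unknown, so the labels could not be checked with it. Of 8 genes known from HEK293 cells, 7 were above background on both arrays, among them the neurofilament gene NEFM at 4292 and 8206 and ENO2 at 419 and 1025. The signals of the 8 summed to 50999 and 55485, with 4 past 2-fold higher by their measured signals. For PAX2 among these 4, at 134 and 278, the control signal was under background, which allows only at least 1.94-fold. Of 9 measured markers of blood, liver, skin and stromal cells, PTPRC, KRT5 and KRT14 were under background on both arrays. COL1A1, with the highest signal at 631 and 2571, and HBB, at 242 and 263, were above it on both. CD3E (244 and 168), ALB (219 and 135) and DCN (184 and 117) were above it only for GFP control. APOA1 (84.7 and 315) was above it only for IRX1::GFP. The signals of the 9 summed to 1789 and 3840. For ACTB, the control signal at the 3′ end divided by that at the 5′ end, which is lower in more intact RNA, was 3.23 on the GFP control array and 1.64 on the other. For GAPDH the arrays were closer, at 1.22 and 1.01. The part of these differences in the results below was not tested.

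Most ribosomal protein genes read at similar signals on both arrays, as did other bright probe sets. Of the genes, 48 lay over a geometric mean signal of 50000. In that range none of 63 other named probe sets was at least 2-fold different, and 55 were above 0. The shares over all genes given next are mostly of dimmer genes. Of 56 genes 55 passed the filter. Among them RPL10L, a paralog of RPL10 known from testis, was the 1 gene at least 2-fold higher with IRX1::GFP. No member was at least 2-fold lower. The shares over all 12193 named genes that passed were 10.4% higher and 5.34% lower at 2-fold. Counted by probe set, 1 of 110 members was higher and 1 lower at 2-fold, against 9.15% and 6.02% of 22633 named probe sets. The ratio stayed under 1.2-fold in either direction for 45 of the 55 genes. Their median log2 ratio was 0.12, a fold of 1.08, with the middle 50% of genes between 0.08 and 0.19. The median over all genes past the filter was 0.07, with the middle 50% between -0.36 and 0.52. The sign was more uniform than the size, since 52 of the 55 genes were above 0, against 54.1% of all genes. This small common shift was about as large as the median of all probe sets that are not controls, 0.11. Those probe sets had a median signal of 183, the filter level, so many of them are dim. By geometric mean signal, other named probe sets past the filter had medians of 0.11 below 1000, -0.08 from 1000 to 5000 and -0.05 from 5000 to 20000. Their medians were 0.10 from 20000 to 50000 and 0.13 above. After 0.11 was taken off every log2 ratio, 31 of the 55 genes were above 0. After loess, which removes a trend with signal, 30 were above 0, and after quantile normalization 27. Members held many of the top ranks, 23 of the 50 brightest probe sets, against 5 other named ones. Both of these scalings were thus partly set by the members themselves and cannot decide on the shift. Whether it lies in the scaling or in the mRNA was not tested. In RNA of many cells, a change in all cells cannot be told apart from one in a share of the cells, nor fewer cells of a kind from less RNA per cell.

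**Figure D1:**
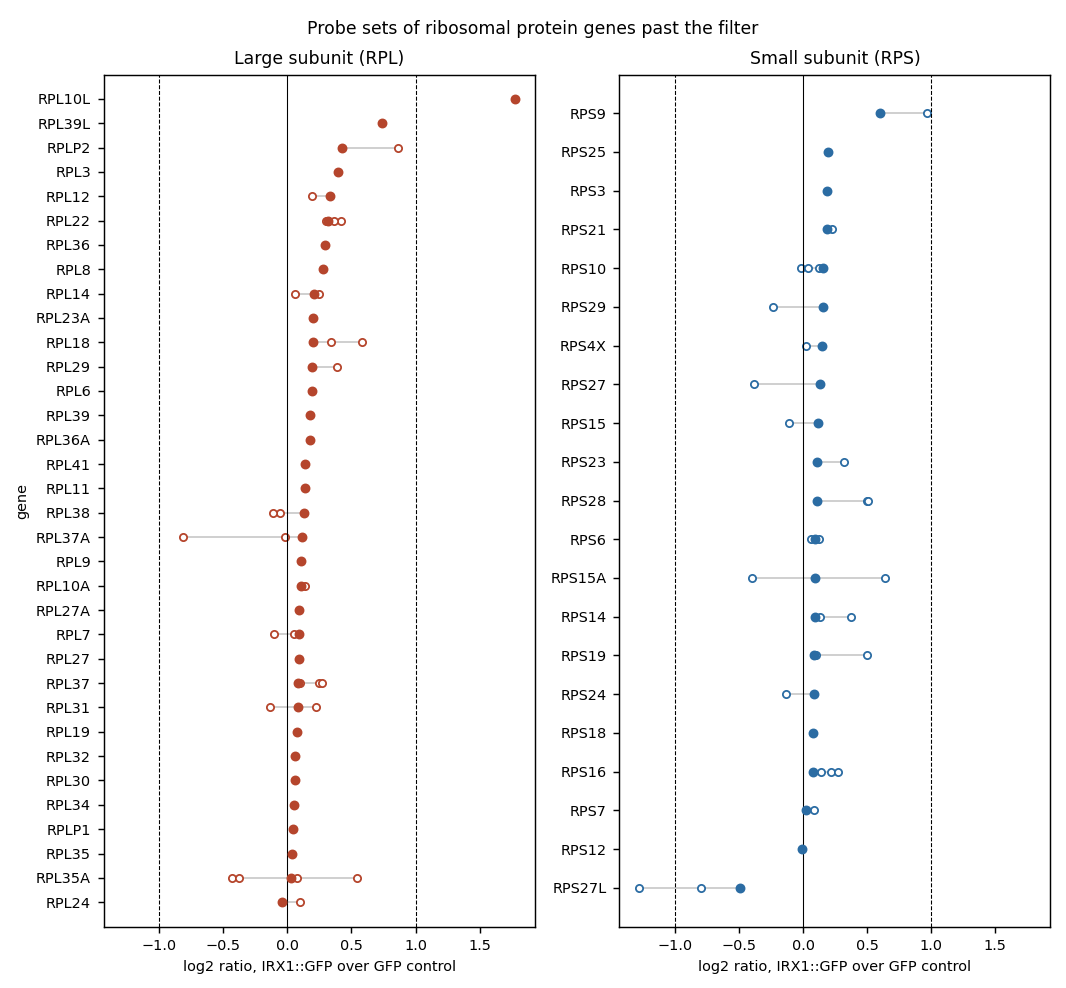
Log2 ratio (x, IRX1::GFP over the control) of every probe set past the filter, by gene (y), for the large subunit on the left and the small subunit on the right, with 1 array per condition. Filled points are the brightest probe set by mean signal, open points the others, and dashed lines 2-fold. Most filled points lie just above 0, while RPL10L stands beyond 2-fold, RPS9 near it on its open point, and all 3 points of RPS27L lie below 0.

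These genes fill the top of the signal range. Of the 55 genes, 49 had a brightest probe set above the 99th percentile of all probe sets, a level of 28057. Among the 100 brightest probe sets of the array pair 38 were members. The highest member signals were those of RPS23, 86930 for GFP control and 93717 for IRX1::GFP, close to the array maxima of 91566 and 94629. RPS6, the small subunit protein that S6 kinases phosphorylate, read 83606 and 89084. RPL7 was at 83751 and 88990, RPS19 at 83194 and 88096, and RPS16 at 83136 and 87443. The log2 ratios of these 5 genes lay between 0.07 and 0.11.

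Other probe sets of the same brightness moved in the same way. Over a geometric mean signal of 50000, the 64 member probe sets had a median log2 ratio of 0.11 and an SD of 0.12, and 60 of them were above 0. The 63 other named probe sets of that band had a median of 0.13 and an SD of 0.19, with 55 above 0. They are of 41 genes and are not unrelated to the members. FAU is among them, as are other genes of the pyrimidine-tract list below, such as TPT1 and EEF1A1. None of either set was at least 2-fold different. Between 20000 and 50000, the SD was 0.47 over 6 member probe sets, among them 1 of RPS9 and 1 of RPS27L, and 0.44 over 460 others. Between 5000 and 20000, it was 0.26 over 10 member probe sets and 0.63 over 2639 others. Under 1000 it was 0.57 and 0.85. The other probe sets thus narrowed from band to band, while the members did not do so steadily and were narrowest over 50000. Whether a true change is compressed there was not tested, so levels near the top of the scale give no limit on the change in mRNA.

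**Figure D2:**
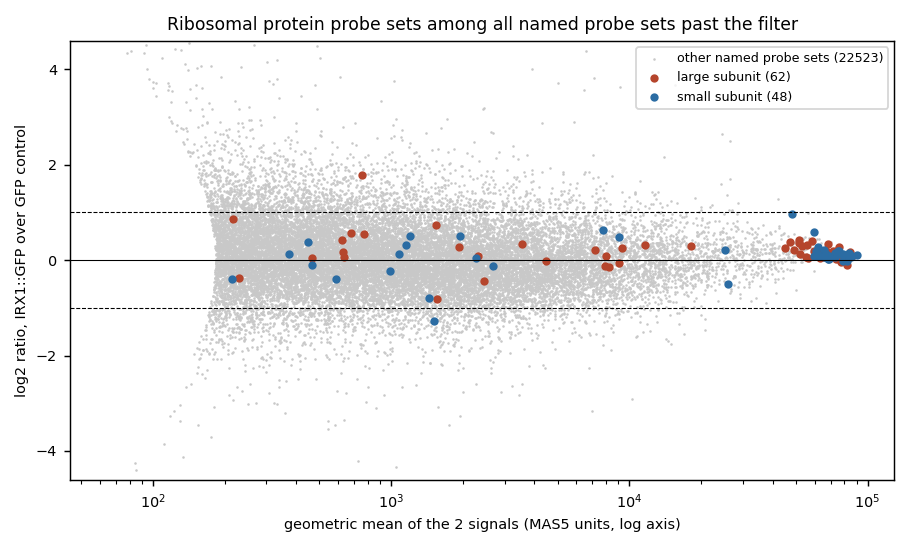
Geometric mean of the 2 signals (x, log axis) and log2 ratio (y, IRX1::GFP over the control) for the probe sets past the filter, 62 of the large and 48 of the small subunit in colour and 22523 others in grey, of which 19 lie outside the plotted range. Ribosomal protein probe sets crowd at the right end just above 0, and those at lower signals spread with the rest.

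**Figure D3:**
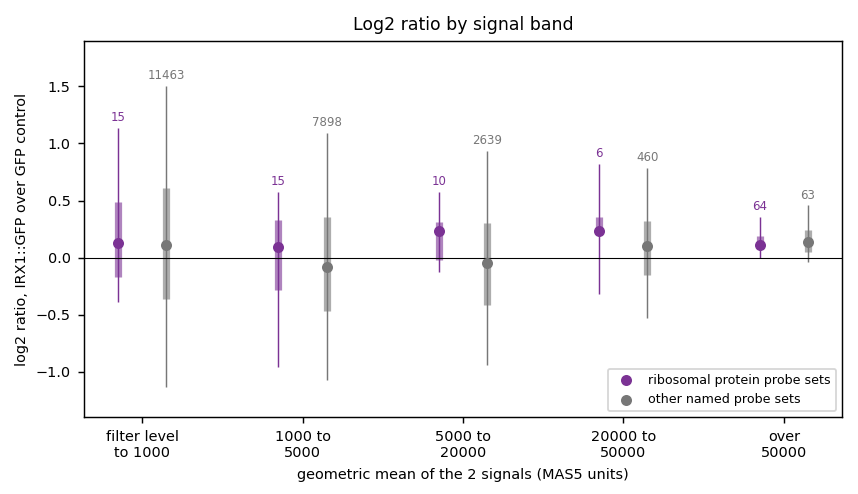
Log2 ratio (y) by band of geometric mean signal (x) for ribosomal protein probe sets and for all other named probe sets past the filter. Points are medians, thick bars the middle 50%, thin bars the 5th to 95th percentile, and numbers the probe sets. The other probe sets narrow toward high signals, the 6 members between 20000 and 50000 are wider (SD 0.47) than the 10 of the band before (0.26), and over 50000 the medians are 0.11 and 0.13.

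Dimmer probe sets of the same genes varied more than the bright ones. For 19 genes, a probe set over 50000 stood beside 1 or more under 20000, 31 in all. Over the 19 bright probe sets the log2 ratio had an SD of 0.06 and ran from 0.02 to 0.32. Over the 31 dim ones the SD was 0.35, the range -0.81 to 0.64 and the median 0.13. The dim probe set had the larger ratio, without regard to sign, in 23 of 31 cases, 19 were above 0 and 12 below. RPL37A, of the large subunit, read 74045 and 80225 on its brightest probe set, but 2065 and 1175 on its dimmest. RPS15A, of the small subunit, read 57780 and 61543 on the brightest, 6233 and 9726 on the second and 677 and 514 on the third. RPL35A had 5 probe sets, with log2 ratios from -0.43 to 0.55 around 0.02 for the brightest. Of the 10 genes with 2 or more dim probe sets, 5 had all of them above 0, 2 had all below, and 3, RPL31, RPL35A and RPS15A, had them on both sides. Whether they read introns, other transcript ends or the many processed pseudogenes of these genes was not tested. No gene had probe sets on both sides of 0 by 0.5 or more. Of the 31 genes with several probe sets past the filter, 19 had all of them on 1 side of 0.

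The large subunit had 34 genes past the filter, with a median log2 ratio of 0.13 and 33 above 0. RPL22, an RNA-binding protein on the outside of the subunit, was higher on all of its 5 probe sets. They read 49900 and 62246, 44584 and 59481, 45345 and 58337, 16380 and 20164, and 10436 and 12993, the GFP control first. Their log2 ratios lay between 0.30 and 0.42, and after loess between 0.23 and 0.33, and bright and dim probe sets of RPL22 differed by 0.12 at most. RPL3, which reaches toward the centre where peptide bonds are made, read 51118 and 67361, a log2 ratio of 0.40. RPL29 differed between its probe sets, at 55609 and 63410 and at 41339 and 54164. RPL36 read 47786 and 58528, RPL8 69119 and 83681, and RPL14 45620.2 and 52615. By the deposited signals all these genes were higher with IRX1::GFP, by less than 2-fold. After quantile normalization the brightest probe sets of RPL29 and RPL14 were at log2 ratios of -0.0064 and 0.0015, and RPL36 at 0.09. RPL22, RPL8 and RPL3 were then at 0.11, 0.16 and 0.21.

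At the other end, RPL24 had the only log2 ratio of the large subunit below 0 on its brightest probe set, at 78423 and 76070, while its second read 74336 and 79718. RPL35 read 62144 and 63668, RPL34 55357 and 57240, RPL30 73529 and 76406, and RPL32 54332 and 56557. RPL19, at 63877 and 67199, was within the same range. For RPL35, RPL34, RPL30, RPL32 and RPL19 these are ratios of 1.02 to 1.05-fold.

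Between these ends the large subunit genes lay close together. RPL23A, which sits beside the exit of the peptide tunnel, read 62379.5 and 71626, RPL18 68613 and 78736, and RPL6 67006 and 76361, log2 ratios of 0.20, 0.20 and 0.19. RPL41, the smallest ribosomal protein, read 65395 and 72043, RPL38 60208 and 65876, and RPL9 69815 and 75243. RPL10A was at 72297.5 and 77912, RPL27 at 82252 and 87359, RPL37 at 72649.7 and 76962, and RPL31 at 77302 and 81645.5. RPL27A and RPL36A were read only by dim probe sets, at 2239 and 2385 and at 594 and 670.2, and these too were within 1.2-fold.

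The stalk of the large subunit, made of acidic proteins that recruit the translation factors, was read by 3 of its 4 listed genes. RPLP1 was level, at 81598 and 84096. RPL12, which holds the stalk at its base, read 60761 and 76458 on its brighter probe set and 60111 and 68695 on the other. Both RPLP2 probe sets were dim, at 536 and 721 and at 160 and 292. RPL11, which binds 5S rRNA and the p53 ligase MDM2, read 58910 and 64892. Of 18 genes mutated in Diamond-Blackfan anaemia, an inherited failure of red cell production, 13 were measured. Their log2 ratios ran from 0.02 to 0.20, with a median of 0.09 (-0.02 after loess).

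The small subunit had 21 genes past the filter, with a median log2 ratio of 0.11 and 19 above 0. RPS9, a protein near the entry of the mRNA channel, stood apart from the rest. Its brightest probe set went from 48519.7 in control cells to 73341 with IRX1::GFP, 1.51-fold, and its second from 34633 to 67608, 1.95-fold. The dimmest read 22.4 and 143, both under background. The log2 ratios of 0.60 and 0.97 were 0.50 and 0.88 after loess. The next gene of the subunit, RPS25, was at 0.20, with 56500 and 64755. Between probe sets of one gene past the filter the SD was 0.49 over 5930 genes, and 0.18 over the 89 genes with several probe sets at or above 20000. Neither SD measures how far a gene lies from 0, and neither holds a difference between cultures. Of other named probe sets over a geometric mean signal of 50000, the 95th percentile was 0.46 and the highest log2 ratio 0.98. Between 20000 and 50000, where the second RPS9 probe set lay, these were 0.79 and 2.66. Both RPS9 ratios were thus above the 95th percentile of their band and under its highest value.

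RPS3, which lies at the same entry, read 70194 and 79927, and RPS21 70921 and 80497. At the low end of the core genes, RPS12 read 81946 and 81365, RPS7 68078 and 69176, and RPS18 64184 and 67621. The 4 probe sets of RPS10, from 2237 to 79263 in the GFP control, had log2 ratios between -0.02 and 0.16. RPS28 read 60530 and 65236 on its brightest probe set, while its dimmer ones read 7641 and 10770 and 1636 and 2324, log2 ratios of 0.50 and 0.51.

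The other small subunit genes were level on their brightest probe sets. RPS29 read 72174 and 80136, RPS4X, an X-linked gene, 69607 and 77144, and RPS15 64346 and 69877. RPS14 was at 66932 and 71188 and RPS24 at 60324 and 63871. Their dimmer probe sets went both ways. The second ones of RPS29, RPS24 and RPS15 were lower with IRX1::GFP, at 1075 and 915, 2810 and 2565, and 482 and 448, and that of RPS14 was higher, at 394 and 510, all by less than 2-fold. Of the 117 member probe sets 7 did not pass the filter, and 6 of these were under background on both arrays. They belong to RPL36, RPL3L, RPLP1, RPS12, RPS14, RPS6 and RPS9, and for all of these but RPL3L a brighter probe set was used.

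The paralogs, extra copies of ribosomal protein genes with their own expression, varied more than the core genes, at lower signals, where the spread over all genes is wider too. Of 8 listed 7 passed the filter, with log2 ratios from -0.60 to 1.78 and an SD of 0.88. RPL10L went from 409.8 in control cells to 1405 with IRX1::GFP, 3.43-fold, on its only probe set. RPL10L is a retrocopy close in sequence to RPL10, which has no probe set of its own here, so shared signal is open to doubt and was not tested. RPL39L, a testis paralog of RPL39, read 1191 and 1985, 1.67-fold, while RPL39 read 79341 and 89795. RPL3L, a gene of heart and skeletal muscle, read 127 and 11.6, both under background, and is the 1 member that did not pass the filter.

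RPS27L, which p53 is known to induce, was lower on all 3 of its probe sets. The brightest read 30851 in control cells and 21889 with IRX1::GFP, 1.41-fold lower. The second read 2357 and 969, 2.43-fold lower, and the third 1905 and 1095, 1.74-fold lower, so that 1 of the 3 passed 2-fold. Its log2 ratios of -0.50, -1.28 and -0.80 stayed below 0 after loess, at -0.54, -1.27 and -0.79. RPS27 read 73410 and 80446, and a second RPS27 probe set 245 and 187.

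The paralogs outside the symbol rule were read by 1 probe set each. RPL22L1 read 18877 and 12775, a log2 ratio of -0.56, opposite in sign to the 5 probe sets of RPL22. RPL7L1 read 33074 and 21780, a log2 ratio of -0.60. RPL26L1 was at 19531 and 29494, a log2 ratio of 0.59, and RPL36AL at 26963 and 27816. None of these reached 2-fold. FAU, whose product holds a small subunit protein fused to a ubiquitin-like domain, read 53731 and 72864, a log2 ratio of 0.44.

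**Figure D4:**
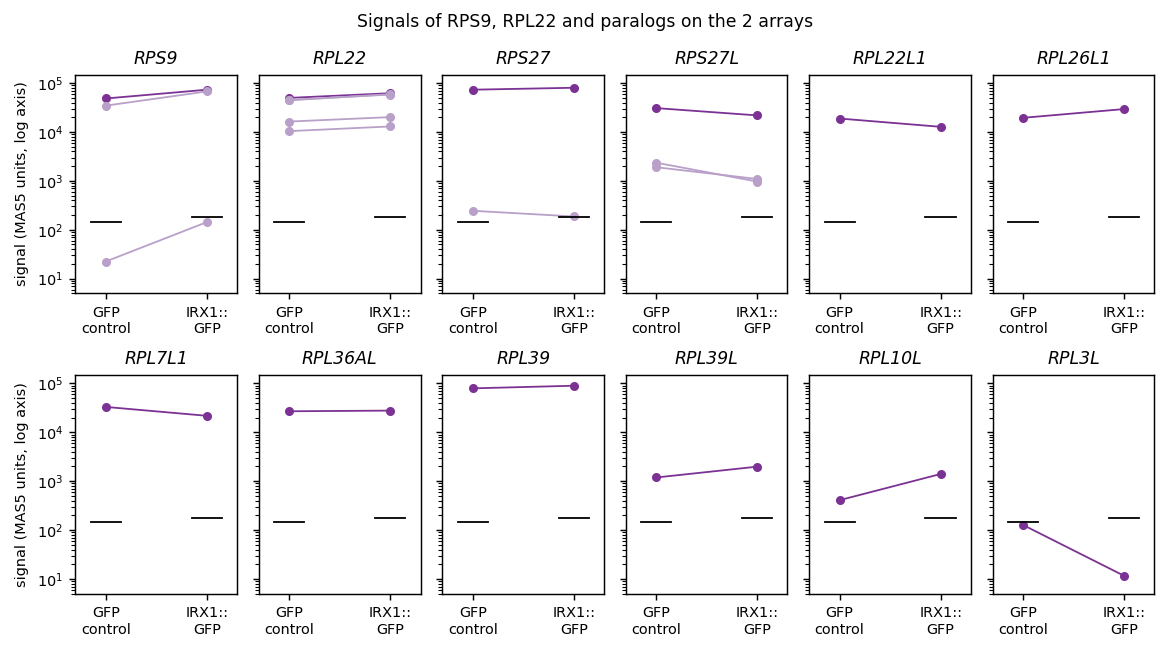
Signals (y, log axis) on the GFP control and IRX1::GFP arrays of RPS9, RPL22, RPS27, RPL39 and 8 paralogs. Each line is a probe set, dark for the brightest, and the short black lines are the background of each array. All RPL22 lines slope up in parallel, all RPS27L lines slope down, and both ends of RPL3L lie under background.

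Genes that make or regulate ribosomes were read from lists that were chosen with earlier results of these data known. The counts at 2-fold of each list below stand beside 10.4% higher and 5.34% lower over all 12193 genes past the filter. Of 21 further genes whose mRNAs are known to start with a pyrimidine tract, FAU among them, EEF1D, a subunit of the elongation factor that reloads EEF1A, was at least 2-fold higher and none lower. EEF1D went from 18835 to 43319 on its brightest probe set and from 18851 to 38648 on its second, while the third in brightness read 605 on both. EIF3F read 30101 and 35848, and EIF4B 11236 and 13366. EIF2A read 14602 and 8649, EIF3A 28437 and 18455, VIM, a filament protein, 38213 and 28168, and the importin gene IPO7 8734 and 7697. The list median was 0.06.

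Ribosome assembly factors, which process rRNA and fold it with the proteins, spread in both directions. Among the 57 that passed, 3 were higher and 3 lower at 2-fold, with a median log2 ratio of -0.08. Over all genes past the filter the shares were 10.4% higher and 5.34% lower, so these counts do not set the list apart. After median centring the counts were 1 and 4, since RRP1 (0.94) and IMP3 (0.90) fell short of 2-fold and NOC3L reached it, and with the mean over probe sets they were 1 (IMP3) and 3. NIP7, needed for late steps, went from 5185 to 12214, RRP1 from 810.5 to 1679.7 and IMP3 from 3819.5 to 7658, while DDX51 read 905 and 1593. RIOK2, a kinase of small subunit maturation, went from 5029 to 1617, the helicase gene DDX10 from 8206 to 3603, and EFL1, which helps to free the new large subunit, from 2360 to 1083. NOC3L read 6334 and 3410.

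Of 14 genes of RNA polymerase I and its factors, which make the rRNA precursor, 2 were at least 2-fold higher and none lower. Over all genes past the filter these shares were 10.4% and 5.34%. POLR1G went from 1396 to 5105, and UBTF from 1610 to 3711 on its brightest probe set, while its 3 dimmer probe sets that passed read 1574 and 1487, 818 and 539, and 557 and 629, so that 2 of them were lower. The mean log2 ratio over the UBTF probe sets was 0.17, under 2-fold. POLR1C read 4647 and 6504. POLR1D read 23178 and 32286 on its brightest probe set, but was lower on its others, at 5158 and 4868 and at 5464 and 4232. TAF1D read 2634 and 1467, TAF1A 3539 and 2003, POLR1B 4074 and 2937, and POLR1F 3227 and 2462. The median was -0.16.

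Of 16 genes of the mTORC1 pathway, LARP1 and the MYC family, MYCN was at least 2-fold higher. It went from 80.5, under background, to 301, at least 2.1-fold. Its mean of 191 passed the filter of 183 only through the IRX1::GFP signal. The next MYCN probe set, under the filter, read 193 and 158, and the rest were under background on both arrays. With the filter at the 75th percentile MYCN did not enter, and no gene of this list was at least 2-fold higher. AKT1S1, an inhibitor in mTORC1, read 1219.7 and 2436, just under 2-fold, and 217 and 474 on its second probe set, 2.19-fold. Its log2 ratio of 0.998 became 1.02 after loess and 1.01 after quantile normalization, both past 2-fold. MYC read 1341 and 2354, and TSC2 1052 and 1383. LARP4 read 6911 and 3858, the S6 kinase gene RPS6KB1 10022 and 5974, RPTOR 431 and 254, and LARP1 15283 and 10462. None of the 16 was at least 2-fold lower, and the median was 0.12. The ribosomal protein genes, at a median of 0.12, had the smallest spread of these lists, and they also had the highest signals.

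**Figure D5:**
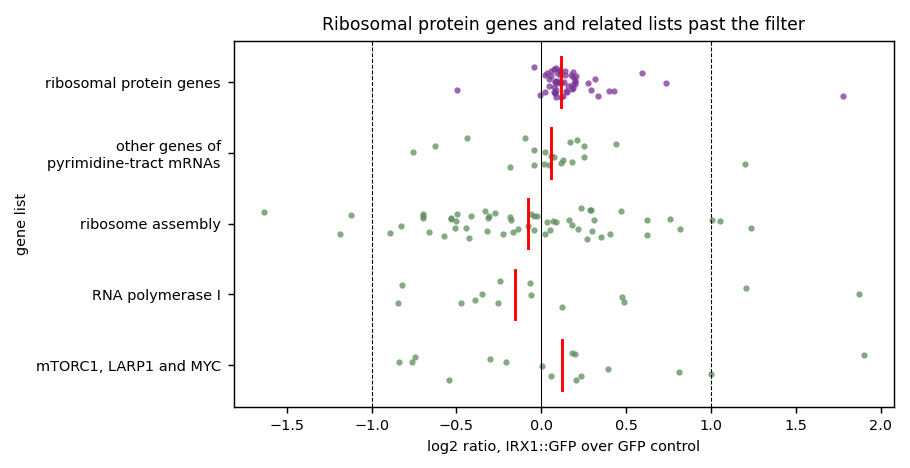
Log2 ratio (x, IRX1::GFP over the control) of each gene past the filter in 5 lists (y), with 1 array per condition, red lines at the medians and dashed lines at 2-fold. Ribosomal protein genes cluster at a median of 0.12, and the assembly factors lie on both sides of 0 around -0.08.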

How the data were processed

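RNA of HEK293T cells was hybridised to HG-U133 Plus 2.0 arrays, of which 1 per condition was analysed, and this number limits the precision. The deposited values are linear signal intensities that the authors made with MAS5, per the submitters' processing notes. No version was given. Detection calls were not used here.

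Names came from the annotation of the platform. Of 54675 probe sets 62 were array controls, 41091 others had 1 gene symbol, 1801 had several and 11721 were unnamed here. Symbols were updated by gene identifier from RefSeq (GRCh38.p14). The log2 ratio, the filter and the background are as given above. Calls were made at 2-fold, without a test. The members and lists were chosen with earlier results of these data known. Named genes are the 10 highest and 10 lowest members by log2 ratio, the 5 brightest, the paralog, stalk and 5S rRNA genes, and the 4 highest and 4 lowest of each further list; others, such as RPL37A, RPS15A, RPL29, RPS10, RPS25 and RPS28, were picked with their values in view. The start window of 5 bases was also chosen then. Promoters run from 250 bases before to 50 after the first start listed for a gene, and 6 members have several. Protein sequences were not used here, so the planned identity between paralogs was not computed.

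Values were recomputed with median centring, with quantile normalization, with loess (span 0.3), without a filter, with the filter raised to the 75th percentile, without probe sets above the 99th percentile, with the mean over probe sets, only _at probe sets or the dimmest probe set of a gene, for probe sets in place of genes, and with a wider membership. The steps were tested on simulated data. The scripts ran in Python 3.11.15 with matplotlib 3.10.9, statsmodels 0.14.6, pandas 2.3.3 and numpy 2.4.6.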

Additional observations from a re-analysis of the deposited data

How the results depend on the processing

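No paired analysis was possible because there was 1 array for each condition, and for the same reason none could be left out. The median log2 ratio of members lay between 0 and 0.15 under all alternatives run, and that of the large subunit between 0.0021 and 0.14. That of the small subunit was -0.00075 after quantile normalization and -0.0056 after loess, so its sign rests on the scaling. The count of members at least 2-fold lower was 0, and became 1 with no filter (RPL3L, with both signals under background), and 1 with only _at probe sets and 1 with probe sets in place of genes (both RPS27L). Over all genes, 1267 higher and 651 lower became 3456 and 1983 with no filter, 513 and 415 where the filter was the 75th percentile, and 2070 and 1363 for probe sets.

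The median of the other genes with a pyrimidine tract, 0.06, became -0.048 after median centring, -0.075 after quantile normalization, -0.052 after loess, -0.0011 without probe sets above the 99th percentile, -0.18 with only _at probe sets and -0.054 with the dimmest probe set. The median of the paralogs, 0.04, became -0.063, -0.079 and -0.0029 after the 3 scalings in that order, -0.23 with no filter, 0.59 with only _at probe sets and -0.50 with probe sets in place of genes. That of ribosome assembly genes became 0.021 with the dimmest probe set. The log2 ratio of EEF1D was -0.0011 without probe sets above the 99th percentile, which leaves its dim ones, and that of RRP1 -0.12 with the dimmest probe set. The cause of the other shifts was not tested. Whether signals near the array maximum limit the differences that the bright members could show was not tested.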
